A study of Mus musculus with 4 samples.

Results

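The 10 genes described here are lipid-handling genes of macrophages, taken by name and Ensembl identifier out of the 12596 genes of the deposited table, which held all 10: Apoe, Lpl, Trem2, Abca1, Abcg1, Fabp5, Lgals3, Cd9, Plin2 and Gpnmb. Macrophages take up lipid from lipoproteins and from dead cells, hold it as cholesteryl ester and triglyceride in droplets, and hand cholesterol back to lipoprotein particles outside the cell through ABC transporters. Several of these genes are targets of the liver X receptors, nuclear receptors that sense oxidised cholesterol, and several are raised together in macrophages that surround dying adipocytes or fill atherosclerotic plaques. In the colon, macrophages are replaced by monocytes that enter the lamina propria and mature there into resident cells with high complement C1q.

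The cells came from the colonic lamina propria of 4 male C57/Bl6N mice of the same supplier, which were wild type. Mice 14 and 15 had received diesel exhaust particles (DEP, 12 µg in 200 µL PBS) by gavage 5 days per week for about 6 months, and mice 2 and 3 had received PBS in the same way. Cells positive for CD11b and for Ly6C or CD64 were sorted in a single batch, and each mouse was loaded in a well of its own on a droplet instrument that counts the 3′ ends of transcripts with unique molecular identifiers (UMIs). A difference between wells and a difference between mice therefore cannot be told apart, and 2 mice per group limit every DEP comparison. Of 943 deposited cells, 649 were retained (111 and 199 of DEP mice 14 and 15, 169 and 170 of PBS mice 2 and 3), with 436261 to 781008 UMIs per mouse. A cell was left out where it carried transcripts of at least 3 markers of a cell class other than macrophages, and this removed 41.3% and 40.4% of the cells of DEP mice 14 and 15 but 15.5% and 22.7% of those of PBS mice 2 and 3. Of these 294 cells, 262 were removed by immunoglobulin transcripts alone, so results on DEP are also given with those transcripts not counted as markers (911 cells). One barcode was shared by 2 libraries.

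Members were followed in 2 groups of cells. Plac8-high cells had 2 or more UMIs of Plac8, a gene of circulating monocytes, and numbered 160 (41 and 59 in DEP mice 14 and 15, 32 and 28 in PBS mice 2 and 3). C1q-high cells had C1qa, C1qb and C1qc together at 0.5% or more of their UMIs and numbered 511 (81 and 139 in the DEP mice, 149 and 142 in the PBS mice). Only 38 cells met both definitions and 16 met neither. The monocyte marker list, which includes Plac8, summed to between 5286 and 8871 CPM (a gene's UMIs relative to all UMIs of its library) per mouse in Plac8-high cells and to between 430 and 1368 CPM in C1q-high cells. The resident macrophage list, which includes the C1q genes, summed to between 3237 and 7510 CPM in Plac8-high cells and to between 19701 and 20809 CPM in C1q-high cells. Much of these sums came from the genes that chose the cells, so they do not test the definitions. Pooled, Plac8 stood at 4172 CPM in Plac8-high cells, and C1qa, C1qb and C1qc at 6005, 6814 and 5075 CPM in C1q-high cells. The remaining list genes lay on the side of their list, except Fcgr1 (214 CPM in Plac8-high and 213 CPM in C1q-high cells) and Timd4 (2 and 0 UMIs). Plac8-high cells made up 36.9% and 29.6% of the retained cells in DEP mice 14 and 15 and 18.9% and 16.5% in PBS mice 2 and 3, and with immunoglobulin transcripts not counted as markers 27.6% and 22.9% against 18.6% and 16.1%. None of the 7 adipocyte markers was in the table, and epithelial markers reached at most 11.7 CPM in C1q-high cells, where Epcam, Krt8, Krt18, Cdh1 and Muc2 were at 0. The B or plasma cell list summed to 486 and 739 CPM in the retained cells of the DEP mice and to 369 and 389 CPM in those of the PBS mice, and its part in the DEP results was not tested.

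RefSeq promoter windows (build GRCm38.p6) were found for 7 of the 10 members and not for Lpl, Abcg1 and Fabp5. The 250 bases before the start are shown for Apoe, Trem2 and Abca1, which were all higher in C1q-high cells, as described in the following paragraphs, and for which the RefSeq start was the 5′ end of the gene in GENCODE vM21. Capitals mark the letters of a motif searched, which were AGGTCA, the recognition site of nuclear receptors, and CACGTG, the core of the E-box.
Apoe, chr7:19699189-19699438, minus strand: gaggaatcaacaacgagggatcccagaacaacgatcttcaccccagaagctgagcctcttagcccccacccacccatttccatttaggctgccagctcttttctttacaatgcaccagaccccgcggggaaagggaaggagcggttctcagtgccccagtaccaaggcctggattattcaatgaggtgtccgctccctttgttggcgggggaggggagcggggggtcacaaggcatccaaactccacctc
Trem2, chr17:48346151-48346400, plus strand: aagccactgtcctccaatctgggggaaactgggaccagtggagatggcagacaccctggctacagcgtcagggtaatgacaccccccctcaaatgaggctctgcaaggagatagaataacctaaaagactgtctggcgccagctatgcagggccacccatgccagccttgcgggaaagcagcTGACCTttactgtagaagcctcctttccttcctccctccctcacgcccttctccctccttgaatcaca
Abca1, chr4:53159896-53160145, minus strand: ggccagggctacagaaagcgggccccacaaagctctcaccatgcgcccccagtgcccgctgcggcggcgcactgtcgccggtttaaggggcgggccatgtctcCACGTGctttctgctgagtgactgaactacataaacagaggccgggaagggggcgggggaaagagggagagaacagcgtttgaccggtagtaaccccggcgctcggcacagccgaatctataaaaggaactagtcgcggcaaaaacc
On either strand, AGGTCA was present in this stretch of Trem2 and Plin2, and in 14.02% of all 32851 promoter windows in the table. The core CACGTG was present for Abca1 alone among the 7 members and in 6.02% of all windows. The longer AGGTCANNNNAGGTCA (0.0152% of windows) and AGGTCANAGGTCA (0.0335%), which repeat that site, TCACGTGA (0.785%), which holds the E-box core, and the M-box core TCATGTG (3.25%) were found in none of the 7 members. Only exact letters were searched, so a site that differs from them by a letter was not counted. These matches are letters in a window, and no binding was measured.

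Apoe, on chromosome 7 (19696109 to 19699188, minus strand), encodes apolipoprotein E, the lipoprotein component with which macrophages carry cholesterol away. It was the most abundant member in both groups of cells and held 95.6% of all member UMIs in C1q-high cells and 81.3% in Plac8-high cells. The members together took 4.25% of all UMIs of C1q-high cells. Without the cells that met both definitions, Apoe stood in Plac8-high cells at 5981 and 3997 CPM in DEP mice 14 and 15 and at 6291 and 5796 CPM in PBS mice 2 and 3 (here and for the other members, CPM of this comparison were scaled with TMM factors). In C1q-high cells of the same mice it stood at 45219, 39653, 51247 and 48144 CPM. Every C1q-high library was above every Plac8-high library, by a log2 fold change of 3.08 (SE 0.129, adjusted p = 1.16e-31), a fold of 8.44. Here all p-values are from edgeR's quasi-likelihood test with mouse as a block and were adjusted by Benjamini-Hochberg over 5153 genes.

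In this comparison 571 genes were higher and 400 were lower in C1q-high cells, which is 11.1% and 7.76% of the genes tested. Of the 8 members tested, 4 were higher and 2 were lower, and the median log2 fold change of the members was 1.22 beside 0.12 over all genes tested. Higher in every mouse were 22.8% of all genes and 4 members, and lower in every mouse were 12.9% of all genes and 1 member. Lpl and Gpnmb did not pass the filter on low counts, which asked for over 1 CPM in 2 libraries and a UMI in 5% of the cells.

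**Figure D1:**
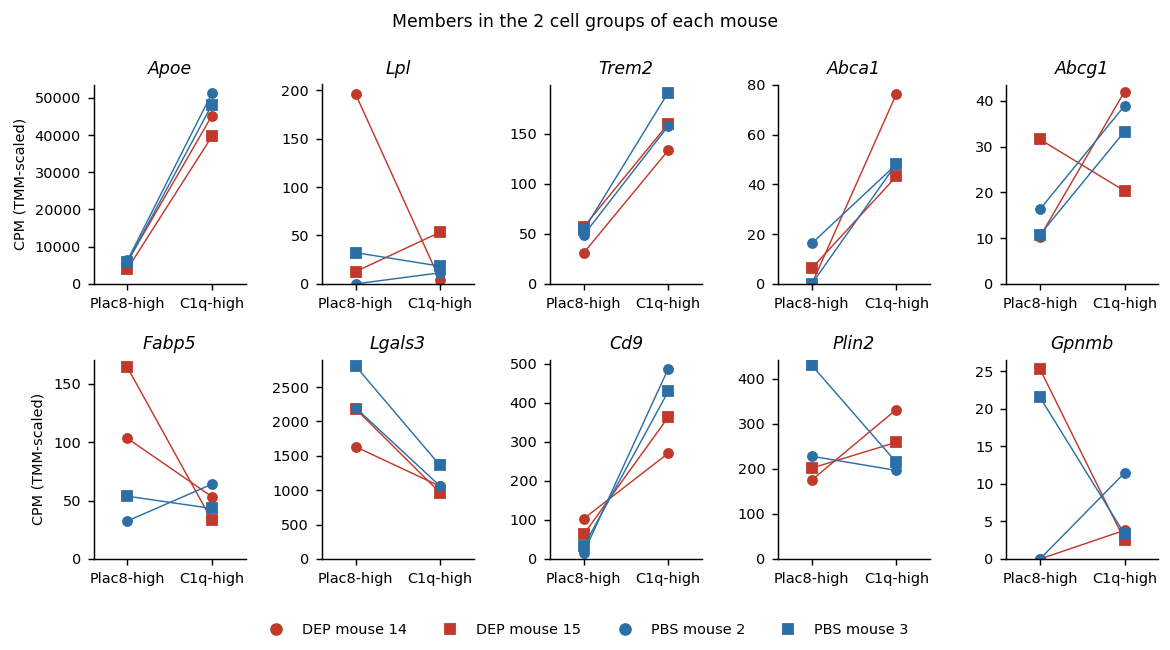
Level of each member in CPM scaled by TMM (linear axes from 0) in Plac8-high and C1q-high cells, with 1 point per mouse, a line joining the 2 cell groups of a mouse, and cells meeting both definitions left out. Apoe, Trem2, Abca1 and Cd9 rose along every line and Lgals3 fell along every line. Lpl, Abcg1, Fabp5, Plin2 and Gpnmb rose in some mice and fell in others.

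Apoe was also spread widely among the C1q-high cells themselves. Its share of a cell's UMIs in the 473 cells that were C1q-high only had a median of 3.71%, with quartiles of 2.28% and 5.58% and a highest value of 13.3%. In the 122 cells that were Plac8-high only the median was 0.342% and the highest value 4.24%. The 38 cells that met both definitions lay between them, at a median of 2.17%, with 4.05% in PBS mouse 2 and 1.08% in DEP mouse 14. Cells of another type were read in the same way. In 13 B cell-like cells of the same table, with 3 or more B cell markers other than immunoglobulins (a group chosen after the data were seen), the median share of Apoe was 0.174% and 92.3% of the cells had an Apoe UMI after thinning to 1000 UMIs, beside 93.1% of the Plac8-high cells. The share of Plac8-high cells with an Apoe UMI was thus close to that of a cell type that should lack the gene and is not read as expression. Summed over these 13 cells Apoe stood at 8260 CPM, with up to 4.10% of UMIs in a cell, and so above the pooled 5702 CPM (without TMM factors) of the cells that were Plac8-high only. Whether these UMIs came from free RNA or from cells captured together was not tested. The median depth was 7780 UMIs in the B cell-like cells and 3104 in the Plac8-high cells.

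**Figure D2:**
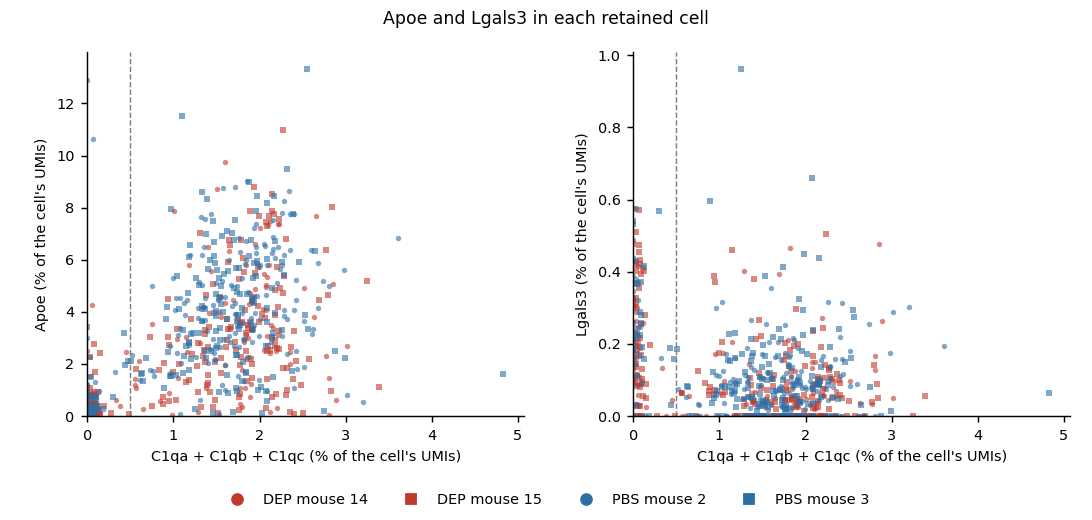
Share of UMIs from Apoe (left) and Lgals3 (right) in each of the 649 retained cells against the share from the 3 C1q genes, in percent on linear axes, coloured by treatment and shaped by mouse; the dashed line is the minimum of 0.5% for C1q-high cells. Cells left of the line lie mostly near 0 for Apoe and cells right of it spread up to 13.3%, whereas Lgals3 reached 0.578% in Plac8-high cells and 0.961% in C1q-high cells.

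Abca1 (chromosome 4, 53030787 to 53159895, minus strand) and Abcg1 (chromosome 17, 31057675 to 31117988, plus strand) encode the transporters that move cholesterol to apolipoproteins and to lipoprotein particles. Both were sparse. In Plac8-high cells Abca1 had 0 and 1 UMIs in DEP mice 14 and 15, against 1 and 0 UMIs in PBS mice 2 and 3, and in C1q-high cells it had 20, 17, 21 and 29 UMIs. The pooled ratio was 8.65 (95% exact interval 2.32 to 72.6, which covers counting error only), and the fitted difference passed the test (log2 3.31, SE 0.726, adjusted p = 2.99e-04), although its size rests on those 2 UMIs. Abcg1 had 8 UMIs in Plac8-high and 56 in C1q-high cells, a log2 fold change of 0.71 (SE 0.579) that missed the threshold (adjusted p = 0.468). DEP mouse 15 was lower in C1q-high cells and the other 3 mice were higher.

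Trem2 (chromosome 17, 48346401 to 48354147, plus strand) is a surface receptor for lipids and lipoproteins, and Cd9 (chromosome 6, 125460266 to 125494791, minus strand) is a tetraspanin that marks lipid-associated macrophages. In Plac8-high cells Trem2 stood at 31.0 and 56.8 CPM in the DEP mice and at 48.9 and 53.8 CPM in the PBS mice, and in C1q-high cells at 134, 160, 158 and 191 CPM in mice 14, 15, 2 and 3. The groups did not overlap, and Trem2 was higher in C1q-high cells by 1.72 on the log2 scale (SE 0.313, adjusted p = 1.09e-05). Cd9 stood at 103 and 63.1 CPM in the DEP mice and at 16.3 and 32.3 CPM in the PBS mice in Plac8-high cells. In C1q-high cells Cd9 was at 271, 363, 487 and 429 CPM. The Plac8-high values of Cd9 rest on 10, 10, 1 and 3 UMIs in mice 14, 15, 2 and 3. Those of Trem2 rest on 3, 9, 3 and 5 UMIs. Cd9 was likewise higher in C1q-high cells of all 4 mice, by 2.69 (SE 0.287, adjusted p = 4.44e-12). In thinned cells, 24.7% of C1q-high and 7.50% of Plac8-high cells had a Cd9 UMI, beside 1 of 13 B cell-like cells (7.69%, 95% exact interval 0.195% to 36.0%). That interval covers both shares, so 13 cells do not show whether either lay above background. A Trem2 UMI was found in 11.7% of C1q-high cells, 6.88% of Plac8-high cells and 0 of 13 B cell-like cells, with a 95% exact upper bound of 24.7%.

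Lgals3 (chromosome 14, 47367751 to 47386160, plus strand) encodes galectin-3, a sugar-binding protein that macrophages release and place on damaged lysosomes, and it ran the other way. It stood at 1632 and 2185 CPM in Plac8-high cells of DEP mice 14 and 15 and at 2200 and 2807 CPM in those of PBS mice 2 and 3, against 1057, 963, 1060 and 1360 CPM in C1q-high cells. Lgals3 was lower in C1q-high cells of every mouse, with a log2 fold change of -0.98 (SE 0.136, adjusted p = 1.48e-08). The same direction held in thinned cells, where 76.2% of Plac8-high cells and 49.1% of C1q-high cells had an Lgals3 UMI, beside 3 of 13 B cell-like cells (23.1%, 95% exact interval 5.04% to 53.8%), an interval that covers the share of C1q-high cells and not that of Plac8-high cells. The pooled level was 2401 CPM in Plac8-high cells, 1027 CPM in C1q-high cells and 353 CPM in B cell-like cells, all without TMM factors. Gpnmb (chromosome 6, 49036546 to 49070929, plus strand), a membrane glycoprotein of lipid-laden and phagocytic macrophages, was nearly absent, with 6 UMIs in Plac8-high and 9 in C1q-high cells.

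Lpl (chromosome 8, 68880491 to 68907448, plus strand) encodes lipoprotein lipase, which frees fatty acids from triglyceride. It was detected in few cells. Of the 25 Lpl UMIs of Plac8-high cells, 19 were in DEP mouse 14, and a single cell held 14 UMIs. In C1q-high cells there were 1, 22, 5 and 11 UMIs in mice 14, 15, 2 and 3, with up to 10 in a cell. Fabp5 (chromosome 3, 10012548 to 10016607, plus strand), which carries fatty acids inside the cell, stood at 103 and 164 CPM in Plac8-high cells of the DEP mice and at 32.6 and 53.8 CPM in those of the PBS mice. These Plac8-high values rest on 10 and 26 UMIs in DEP mice 14 and 15 and on 2 and 5 UMIs in PBS mice 2 and 3. In C1q-high cells Fabp5 stood at 53.4, 33.0, 64.1 and 43.3 CPM. It was lower in C1q-high cells overall (log2 -1.02, SE 0.351, adjusted p = 0.0308) but not in PBS mouse 2. The call was lost without DEP mouse 14 and without DEP mouse 15, where the log2 fold change was -0.29 and the adjusted p 0.788 without mouse 15.

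Plin2 (chromosome 4, 86648386 to 86670060, minus strand) coats lipid droplets. It was at 176 and 202 CPM in the DEP mice and at 228 and 430 CPM in the PBS mice in Plac8-high cells, and at 332, 259, 197 and 215 CPM in C1q-high cells. It was higher in C1q-high cells of both DEP mice and lower in those of both PBS mice, and over the 4 mice the log2 fold change was -0.03 (SE 0.224, adjusted p = 0.949). Under 6 other settings its sign turned.

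**Figure D3:**
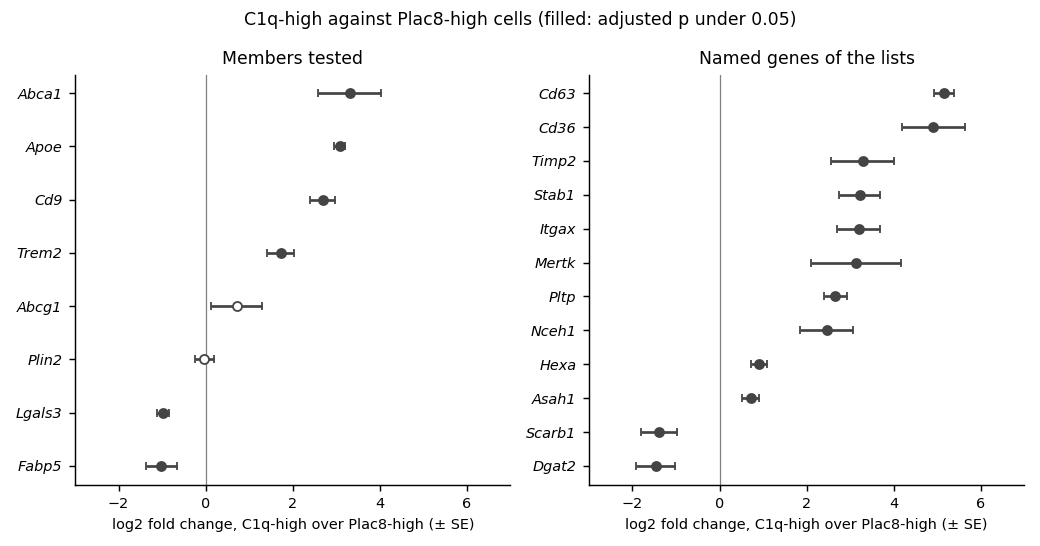
Log2 fold change of C1q-high over Plac8-high cells with its SE for the 8 members tested (left) and for the list genes named in the text (right); filled points passed an adjusted p of 0.05. Apoe, Abca1, Cd9 and Trem2 lie above 0, Lgals3 and Fabp5 below it, and Abcg1 and Plin2 did not pass; on the right Cd63 and Cd36 lie highest and Dgat2 lowest.

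Other genes of lipid metabolism were read from 8 lists. Of 19 genes tested on the list of TREM2 signalling and lipid-associated macrophages, 11 were higher and 4 lower in C1q-high cells and 4 missed the threshold, with a median log2 fold change of 0.71. Cd63, a tetraspanin of lysosomes and exosomes, was at 1608 to 1716 CPM in C1q-high cells and at 16.3 to 63.1 CPM in Plac8-high cells (log2 5.16, SE 0.233, adjusted p = 4.30e-30). Itgax (CD11c) was at 94.0 to 135 CPM against 0 to 41.3 CPM (adjusted p = 2.21e-07). Timp2, a metalloprotease inhibitor, and Mertk, a receptor for dead cells, passed as well (adjusted p = 3.48e-04 and 0.0216), with 2 UMIs and 1 UMI in all Plac8-high cells together.

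Of the cholesterol efflux and liver X receptor list, 2 of 9 genes were higher and none was lower. These were Pltp, phospholipid transfer protein (log2 2.66, SE 0.269, adjusted p = 5.99e-13; 318 to 565 against 32.3 to 145 CPM), and Nceh1, which hydrolyses cholesteryl ester (adjusted p = 0.00137, on 4 UMIs in Plac8-high cells). Uptake genes moved both ways, with 3 of 10 higher and 2 lower. The fatty acid and lipoprotein scavenger receptor Cd36 had 136 UMIs in C1q-high cells and 1 UMI in Plac8-high cells (adjusted p = 1.00e-07; pooled ratio 27.0, 95% exact interval 4.77 to 1076), and the scavenger receptor Stab1 was higher as well (log2 3.22, SE 0.476, adjusted p = 9.81e-08). Among those lower was the high-density lipoprotein receptor Scarb1 (log2 -1.39, SE 0.422, adjusted p = 0.0112).

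Lysosomal lipid breakdown had 3 of 14 genes higher and none lower. Among them were Hexa, an enzyme of ganglioside breakdown (log2 0.91, SE 0.184, adjusted p = 8.32e-05), and the acid ceramidase Asah1 (log2 0.71, SE 0.192, adjusted p = 0.00365). Of 8 genes of lipid droplets and esterification 1 was lower, Dgat2, which makes triglyceride (log2 -1.47, SE 0.445, adjusted p = 0.0114). Of 12 genes of sterol synthesis 1 was lower and none was higher, and none of the 9 genes of PPAR and fatty acid oxidation and none of the 3 of fatty acid binding and activation passed by edgeR, with 1 and 0 of them at an unadjusted p under 0.05. The median log2 fold change was -0.30 for droplets, -0.43 for sterol synthesis, -0.33 for PPAR and oxidation, 0.25 for fatty acid binding, 0.31 for uptake, 0.73 for efflux and 0.60 for lysosomal breakdown, beside 0.12 over all genes.

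Levels in 16 libraries (4 mice by 4 groups of cells: Plac8-high only, C1q-high only, both and neither, the smallest with 3036 UMIs) described which genes ran alongside the members. The libraries share their mice and differ in depth. They were also formed by Plac8 and C1q, so the difference between cell groups enters every correlation, and these values add no separate evidence of it. The gene most like Apoe was Lgmn, a lysosomal protease (Pearson r = 0.94), followed by Ms4a7 (0.92) and the invariant chain Cd74 (0.90), and Lgmn was the gene most like Trem2 as well (0.87), which itself ran with Apoe at 0.91 and with Cd9 at 0.80. Between C1q-high cells of the same mouse, shares of Apoe and Cd9 had a Spearman rho of 0.29, 0.28, 0.32 and 0.31 in mice 14, 15, 2 and 3, and those of Lgals3 and Cd9 had 0.23, 0.15, 0.28 and 0.51. Both pairs were positive in all 4 mice, whereas Apoe and Trem2 ranged from -0.18 to 0.21. Other pairs were positive in all 4 mice as well, among them Lgals3 with Plin2 (0.10 to 0.30) and Cd9 with Plin2 (0.086 to 0.20). A cell showed few of the members at a time. After thinning to 1000 UMIs the median was 2 members per cell in both groups, the highest was 6, and 1.37% of C1q-high cells had 5 or more.

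The effect of DEP was first compared over all retained cells of each mouse. Here 15 of 5108 genes passed (0.294%), and Apoe was the only member among them. It stood at 29686 and 26993 CPM in DEP mice 14 and 15 and at 42771 and 38769 CPM in PBS mice 2 and 3. Both DEP mice were below both PBS mice, by a log2 fold change of -0.52 (SE 0.103, adjusted p = 0.0423). This call did not stand on its own. With immunoglobulin transcripts not counted as markers the difference was -0.24 (adjusted p = 0.796), over all deposited cells -0.25 (adjusted p = 0.782), and with the same share of cell groups drawn from every mouse -0.31 (adjusted p = 0.948). It was also lost without PBS mouse 2 (adjusted p = 0.345) and without PBS mouse 3 (adjusted p = 0.0926), and DESeq2 gave an adjusted p of 0.999.

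Cd9 and Trem2 lay on the same side without passing. Cd9 stood at 182 and 248 CPM in the DEP mice and at 388 and 340 CPM in the PBS mice (log2 -0.74, SE 0.187, adjusted p = 0.160). Trem2 stood at 94.4 and 119 CPM against 137 and 159 CPM (log2 -0.46, SE 0.210, adjusted p = 0.603). The 3 members Apoe, Cd9 and Trem2 were thus below in both DEP mice, as were 20.0% of all genes, and no tested member was above, beside 18.9% of all genes. Fabp5 lay above in both DEP mice where CPM were not scaled with TMM factors. With immunoglobulin transcripts not counted as markers, the same 3 of the tested members were below. Abca1 (70.9 and 46.9 against 37.9 and 39.2 CPM) and Plin2 (241 and 212 against 209 and 198 CPM, all without TMM factors) were above. The share of all genes on each side was not counted in that setting. Lpl, which did not pass the filter, stood at 44.9 and 37.7 CPM with DEP against 8.59 and 18.1 CPM with PBS, on 5 to 24 UMIs per mouse. The median log2 fold change was -0.19 over the 8 members tested and -0.01 over all genes. Lgals3, Plin2, Abca1, Abcg1 and Fabp5 overlapped between the groups, with log2 fold changes between -0.21 and 0.39.

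Within C1q-high cells 10 of 5225 genes passed (0.191%) and no member did. Apoe stood at 36275 and 35684 CPM in the DEP mice and at 45144 and 42829 CPM in the PBS mice, a log2 fold change of -0.29 (SE 0.0872, adjusted p = 0.323). Cd9 was at 204 and 316 CPM against 411 and 378 CPM (log2 -0.59, SE 0.198, adjusted p = 0.483). Lgals3 was at 911 and 887 CPM against 958 and 1214 CPM (log2 -0.27, SE 0.153, adjusted p = 0.832). These 3 tested members had both DEP mice below both PBS mice, which held for 18.2% of all genes. Trem2, which lay below over all cells, overlapped here (112 and 142 against 140 and 170 CPM, log2 -0.28, SE 0.227, adjusted p = 0.894). Plin2 was the only tested member with both DEP mice above (287 and 224 against 192 and 193 CPM, log2 0.40, SE 0.204, adjusted p = 0.796), which held for 17.4% of all genes. With immunoglobulin transcripts not counted as markers, Lgals3 overlapped between the groups (1098 and 1088 against 935 and 1287 CPM, without TMM factors), and Abca1 joined Plin2 above (80.1 and 52.5 against 39.6 and 42.6 CPM; log2 0.65, adjusted p = 0.805). Apoe and Cd9 were below in both settings. The share of all genes on each side was not counted with immunoglobulin transcripts not used as markers.

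In thinned C1q-high cells, a Cd9 UMI was found in 16.05% and 15.8% of the cells of DEP mice 14 and 15 and in 32.9% and 29.6% of those of PBS mice 2 and 3. Unthinned shares were 35.8%, 42.4%, 55.7% and 53.5%. With immunoglobulin transcripts not counted as markers the thinned shares were 17.6% and 21.8% against 32.9% and 29.9%, so that the DEP mice stayed below. The summed level was then 239 and 380 CPM in the DEP mice against 425 and 401 CPM with PBS. An exact two-sided permutation test over 2 and 2 mice has 6 arrangements, 2 of which match the clearest result, and no such difference in shares can pass.

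In Plac8-high cells none of 4905 genes passed by edgeR's quasi-likelihood test (0.00%). At an unadjusted p under 0.05 there were 229 genes, and 4 genes passed by the likelihood ratio test and 0 by DESeq2. Plin2 stood at 211 and 185 CPM in the DEP mice and at 325 and 417 CPM in the PBS mice (log2 -0.91, SE 0.297, adjusted p = 0.938), and was the only member with both DEP mice below, as 16.5% of all genes were. Fabp5 at 84.4 and 152 against 73.5 and 48.5 CPM (log2 0.98, SE 0.494, adjusted p = 0.938) and Abcg1, on 12 UMIs in all, were the 2 members with both DEP mice above, as 19.0% of all genes were. Apoe stood at 9559 and 7880 CPM in the DEP mice and at 22762 and 8487 CPM in the PBS mice (log2 -0.84, SE 0.351, adjusted p = 0.938). PBS mouse 2 alone was high, and 16 of its 32 Plac8-high cells were C1q-high as well. The same held for 13 of 41 cells in DEP mouse 14, 5 of 59 in DEP mouse 15 and 4 of 28 in PBS mouse 3. Without the cells that met both definitions, Apoe stood at 5981 and 3997 CPM in the DEP mice and at 6291 and 5796 CPM in the PBS mice. Those values carry the TMM factors of the comparison between cell groups. PBS mouse 2 did not stand apart there, and the cause of its high level was not tested. With the cells of both definitions kept, the log2 fold change of Apoe was 0.02 without PBS mouse 2 and -1.36 without PBS mouse 3. The value thus depends on which PBS mouse is kept. With immunoglobulin transcripts not counted as markers, Apoe and Trem2 were below in both DEP mice as well as Plin2. Apoe then stood at 13471 and 10438 against 27162 and 14411 CPM (without TMM factors). Fabp5 (68.4 and 167 against 65.5 and 48.1 CPM) and Abcg1 (42.1 and 28.5 against 16.4 and 6.01 CPM) were above, likewise without TMM factors. The share of all genes on each side was not counted in that setting. Lpl had 19 and 3 UMIs against 0 and 3 UMIs (log2 2.16, SE 1.16, adjusted p = 0.938).

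**Figure D4:**
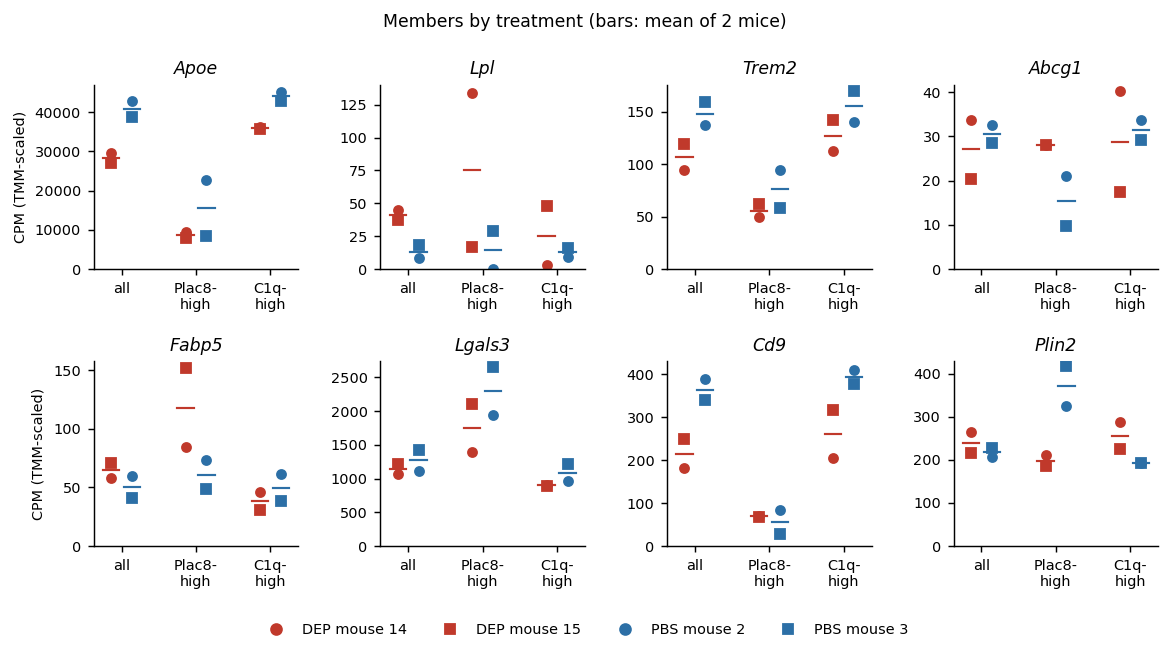
Levels in CPM scaled by TMM (linear axes from 0) of 8 members in all retained cells, Plac8-high cells and C1q-high cells, with 1 point per mouse and a bar at the mean of the 2 mice of a treatment. Apoe, Cd9 and Trem2 of the DEP mice lie below those of the PBS mice over all cells, Plin2 lies below them in Plac8-high cells and above them in C1q-high cells, and PBS mouse 2 stands apart for Apoe in Plac8-high cells.

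Whether the DEP effect differed between C1q-high and Plac8-high cells was tested as an interaction. Its libraries left out the cells that met both definitions, which the DEP comparisons within each cell group kept. Its values are therefore not the differences between the fold changes given above. It passed for 19 of 5153 genes (0.369%) and for no member. The nearest members were Plin2, Cd9 and Fabp5. For Plin2 the DEP effect was more positive in C1q-high cells by 1.30 on the log2 scale (SE 0.410, adjusted p = 0.205, unadjusted p = 0.00151). The difference was -2.09 for Cd9 (SE 0.733, adjusted p = 0.341) and -1.92 for Fabp5 (SE 0.728, adjusted p = 0.494). In Plac8-high cells of PBS mice 2 and 3, Cd9 had only 1 and 3 UMIs and Fabp5 only 2 and 5. Cd9 stood at 103 and 63.1 CPM in these cells of the DEP mice and at 16.3 and 32.3 CPM in those of the PBS mice. With the cells of both definitions kept, the DEP effect on Cd9 in Plac8-high cells was 0.30 on the log2 scale (SE 0.567, adjusted p = 0.971 by the quasi-likelihood test). For Apoe the difference was 0.07 (SE 0.184, adjusted p = 1). The comparisons with DEP share mice and partly cells, so their values are not independent of each other. On the 8 pathway lists no gene passed in any of the 3 DEP comparisons or in the interaction. Over all macrophages 5 of the 19 genes of the TREM2 and lipid-associated list had an unadjusted p under 0.05, beside 415 of all 5108 genes tested there (8.12%). Within C1q-high cells the count was 2 of 19 list genes, beside 6.28% of all genes. Within Plac8-high cells it was 1 of 17, beside 4.67%.

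**Figure D5:**
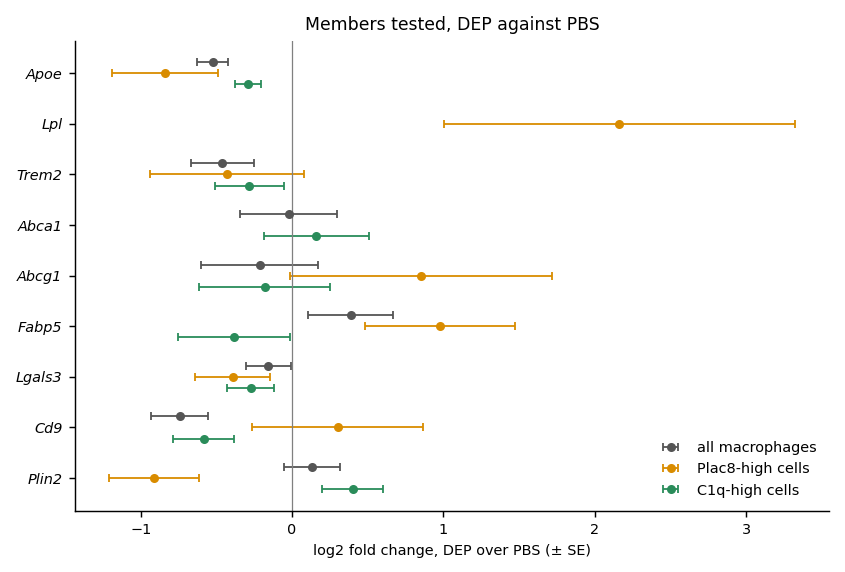
Log2 fold change of DEP over PBS with its SE for the members tested in all retained cells, Plac8-high cells and C1q-high cells. Apoe over all cells passed (-0.52); every member tested in all 3 sets of cells has its widest SE in Plac8-high cells, and that of Lpl there is 1.16.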

How the data were processed

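Colonic lamina propria cells of 4 mice were measured by droplet single-cell RNA sequencing (3′ kit, version 2). The authors aligned the reads to mm10 with Cell Ranger and STAR 2.6.1a, keeping 1 placement of a read that maps to several, removed cells with few UMIs or genes or with an unusual mitochondrial share, and deposited raw UMI counts in 1 table (lowest 1016 UMIs per cell). A mouse was read from the end of each cell's name. The study's doublet search, by its methods, found no suspicious cell, and no doublet caller was run here.

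Counts were summed per mouse and cell group. Sums were tested with edgeR 4.0.16 (TMM, quasi-likelihood test, Benjamini-Hochberg over all genes tested, adjusted p under 0.05) in R 4.3.3, for genes that exceeded 1 CPM in 2 or more libraries and were detected in 5% of the cells or more. SEs are the log2 fold change over the root of F. Cell groups were compared with mouse as a block, leaving out cells in both groups. A library held 49967 to 683561 UMIs in the comparisons within or between the cell groups. For shares, cells were thinned to 1000 UMIs (seed 1), with exact binomial intervals at 95%; these cover counting error only. Tests were checked on simulated counts. Gene positions are from GENCODE vM21 (GRCm38).

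The members and the lists were chosen with earlier results of these data known. All 10 members were named; of each list, at most the 4 genes with the largest absolute change among those past the threshold with libraries that did not overlap between groups or lay on the same side in every mouse; and per member the 3 genes of highest correlation over 16 libraries. Some list genes that met this rule are not reported here. Alternatives were DESeq2 1.42.0 and its size factors, the likelihood ratio test, no filter, other limits for the cell groups, other sets of cells, thinned counts and each mouse left out. Not counting immunoglobulin and J chain transcripts as markers was chosen after seeing the data.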

Additional observations from a re-analysis of the deposited data

How the results depend on the processing

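Between C1q-high and Plac8-high cells, Apoe, Abca1, Cd9 and Lgals3 passed in the same direction under every alternative that tested them, Trem2 under all but thinning to 1000 UMIs (adjusted p = 0.0548), and Fabp5 failed in 5 of 16. Called genes numbered 971, and 487 with DESeq2 (5 members), 404 with thinned cells (3 members), 956 without the replicate block (the same 6 members) and 725 to 847 with a mouse left out (5 to 6 members). Plin2 changed sign there with DESeq2's size factors (0.0041), DESeq2 (0.026), no filter (0.14), thinned cells (0.53), without PBS mouse 2 (0.0072) and without PBS mouse 3 (0.39).

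DEP results depended on the setting. Over all macrophages 15 genes and 1 member were called, against 12 genes and 0 members with DESeq2's size factors, 2 and 0 with DESeq2, 34 and 0 with the likelihood ratio test, 72 and 3 (Apoe, Lpl and Cd9) without a filter, 1 and 0 each for all deposited cells, thinned cells, matched shares of cell groups and immunoglobulin transcripts not counted as markers, and 2 to 65 genes and 0 to 2 members with a mouse left out (Apoe without DEP mouse 14, Apoe and Cd9 without DEP mouse 15, no member without PBS mouse 2 or 3). Without a filter Cd9 passed at an adjusted p of 0.0211. In Plac8-high cells 0 genes became 4 (likelihood ratio test), 21 (no filter), 2 (all deposited cells), 17 (cells meeting both definitions left out) and 8 to 24 (a mouse left out), with 0 to 1 member, Apoe without PBS mouse 3. In C1q-high cells 10 genes became 17 (likelihood ratio test), 38 (no filter, with 1 member, Apoe), 1 (all deposited cells), 0 each with DESeq2, thinned cells, C1q at 1% or at 0.25%, cells of both definitions left out and immunoglobulin transcripts not counted, and 17 to 44 with a mouse left out, with 0 to 1 member (Cd9 without DEP mouse 15, Apoe without PBS mouse 3). For the interaction 19 genes became 1 with all deposited cells and 1 with thinned cells.

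Some members changed sign. Over all macrophages these were Abca1 with DESeq2 (0.0036), all deposited cells (0.54), matched shares (0.23), immunoglobulin transcripts not counted (0.55), without DEP mouse 15 (0.22) and without PBS mouse 2 (0.045; range with a mouse left out -0.23 to 0.22); Abcg1 with all deposited cells (0.16), matched shares (0.33), immunoglobulin transcripts not counted (0.15) and without DEP mouse 15 (-0.57 to 0.16); Plin2 without DEP mouse 14 (-0.020 to 0.29); and Lgals3 without PBS mouse 3 (-0.32 to 0.036). In Plac8-high cells they were Cd9 with thinned cells (-0.28), Plac8 at 0.05% of UMIs (-0.27), immunoglobulin transcripts not counted (-0.27) and without PBS mouse 3 (-0.27 to 1.19), and Apoe without PBS mouse 2 (-1.36 to 0.017). In C1q-high cells they were Abcg1 with all deposited cells (0.17), immunoglobulin transcripts not counted (0.14) and without DEP mouse 15 (-0.83 to 0.36), and Abca1 without DEP mouse 14 (-0.15 to 0.47). The cause of these changes was not tested; sums of thinned cells and of matched cells hold fewer UMIs by construction, and with a mouse left out the lone mouse of a group is assumed to vary like the others. Lpl, Abca1, Abcg1 and Gpnmb, at 64 CPM or less pooled in both cell groups, are limited by depth. So are Trem2 and Cd9 in Plac8-high cells (53.4 and 64.0 CPM, on 20 and 24 UMIs) and Fabp5 in C1q-high cells (43.0 CPM, on 81 UMIs).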
